A study of Homo sapiens with 6 samples.

Results

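Kinesins are motor proteins that walk along or take apart microtubules, and their mRNAs were compared between TNBC cells with and without the RNA-binding protein SAM68. The members were every locus of the deposited table whose gene symbol is KIF or KIFC with its number and letter, which gave 41 loci of the 74852 in the table, 23187 of which carry a symbol. From what the proteins are known to do, 14 of the 41 were classed as mitotic, 17 as transport and 10 as other kinesins, and 36 (12, 16 and 8) had a mean normalized read count of at least 10 and were tested among 18849 loci. KIF18B was not analysed here.

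The cells were MDA-MB-231, a line of triple-negative breast cancer (TNBC), and all 6 libraries came from cells transfected in 2 rounds with siRNAs and collected, per the labels, the day after the second round. The si-CTRL cells (3 libraries) received a non-targeting control and the si-SAM68 cells (3 libraries) received a pool of 4 siRNAs against KHDRBS1, the gene that encodes SAM68. The comparison asked how depletion of SAM68 changed the RNA of these cells. It rests on 1 cell line and 1 pool of siRNAs, whose individual members were not sequenced apart. In bulk RNA of this kind, fewer cells in mitosis and less RNA in each cell cannot be told apart.

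Kinesins share a motor domain that uses ATP to move on microtubules, and most of them move toward the growing plus end. Mitotic kinesins push the spindle poles apart, align chromosomes, build the central spindle and help cleave the cell, and their mRNAs are made mainly in late S phase, G2 and mitosis. Transport kinesins carry vesicles, organelles and RNA through the cytoplasm, often with light chains or adaptors that hold the cargo, and several of them are best known from neurons.

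The 4 siRNAs of the pool are shown because their guide strands can also pair with other transcripts, kinesin mRNAs among them. Each has 19 bases and is printed as the strand that matches KHDRBS1, with capitals on the bases that pair with positions 2 to 8 of the guide, the seed.
siRNA 1: gcacccauaugGACGUUAu
siRNA 2: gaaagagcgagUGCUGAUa
siRNA 3: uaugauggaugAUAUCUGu
siRNA 4: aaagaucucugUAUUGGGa

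KHDRBS1 fell from a normalized read count of 14960 ± 620 (SD, n = 3) in si-CTRL to 618 ± 45.8 (SD, n = 3) in si-SAM68 libraries, a log2 fold change of -4.60 with an adjusted p of 2.13e-09 by limma. The libraries held 52625492 to 82568487 reads. The 5 markers chosen for the MDA-MB-231 line (VIM, CD44, AXL, ZEB1 and MSN) were detected in all libraries at group means of 3314 or more. ZEB1, a repressor of epithelial genes, was the only one of them called, and fell from 5146 to 3314 on average (log2 fold change -0.63, adjusted p = 0.0118 by limma), a call lost without si-SAM68 replicate 1 (0.0521). Among markers of blood, liver and vessel cells, PTPRC, CD3E, CD14 and ALB had group means of at most 7.25, and PECAM1 and VWF averaged 13.7 and 15.1 in si-CTRL and 7.75 and 11.9 in si-SAM68 libraries (adjusted p of 0.250 and 0.604 by limma). Of 7 luminal epithelial markers, CDH1, EPCAM and ESR1 had group means between 1.61 and 10.0 and PGR was at 0, whereas FOXA1 and KRT19 were detected and higher in si-SAM68 cells (adjusted p of 0.00351 and 0.0309, limma) and GATA3 averaged 427 and 384 (log2 fold change -0.13, adjusted p = 0.669 by limma). KRT19 lost its call without any library other than si-CTRL replicate 1 (0.0541 to 0.116). The locus with the symbol KRT19 spans chr17:39679870-39942964 (hg19) and takes in the locus of HAP1. Its normalized read counts, on average 1460 in si-CTRL and 1892 in si-SAM68 libraries, may therefore include reads of other genes. They also enter the summed level. The summed level of these 7 markers was 2619 to 2928 in si-CTRL and 3509 to 3745 in si-SAM68 libraries, and its part in the results on kinesins was not tested. The ribosomal RNA locus took 15.1% of the reads of si-SAM68 replicate 2 and 1.83 to 3.17% in the other libraries.

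The kinesins called after SAM68 depletion by limma all lay outside the mitotic class, and the largest changes were falls of KIF21B and KIF5C. At an adjusted p under 0.05 (limma, Benjamini-Hochberg over all 18849 loci), 5 of the 36 tested kinesins (13.9%) were regulated, beside 10.7% of all loci. In the downward direction 4 of the 36 were called, beside 6.23% of all loci, and in the upward direction 1 was called, beside 4.47%. None of the 12 mitotic kinesins was among them, although 4 of the 12 had an unadjusted p under 0.05 and all 4 were higher, beside 27.0% of all loci at that p in either direction and 12.8% higher. By edgeR on the recovered reads none of the 12 was called either, whereas DESeq2 called 7 of the 36 kinesins, the 5 named here and the mitotic KIF18A and KIF15. DESeq2 also called more of the 18849 loci, 2789 against 2017 by limma. The calls were KIF21B and KIF5C (lower) and KIF3B (higher) of the 16 transport kinesins, and KIF26B and KIF7 (both lower) of the 8 other kinesins. With the replicate number as a block, 3 were called (KIF21B, KIF5C and KIF3B). With the thresholds of the study, a fold change of 1.5 or more with an unadjusted p of 0.05 or less, 3 of the 36 passed (KIF21B, KIF5C and KIF6, all lower), beside 7.67% of all loci. These counts did not set the family far from the background, and the sizes of the changes are given gene by gene.

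**Figure D1:**
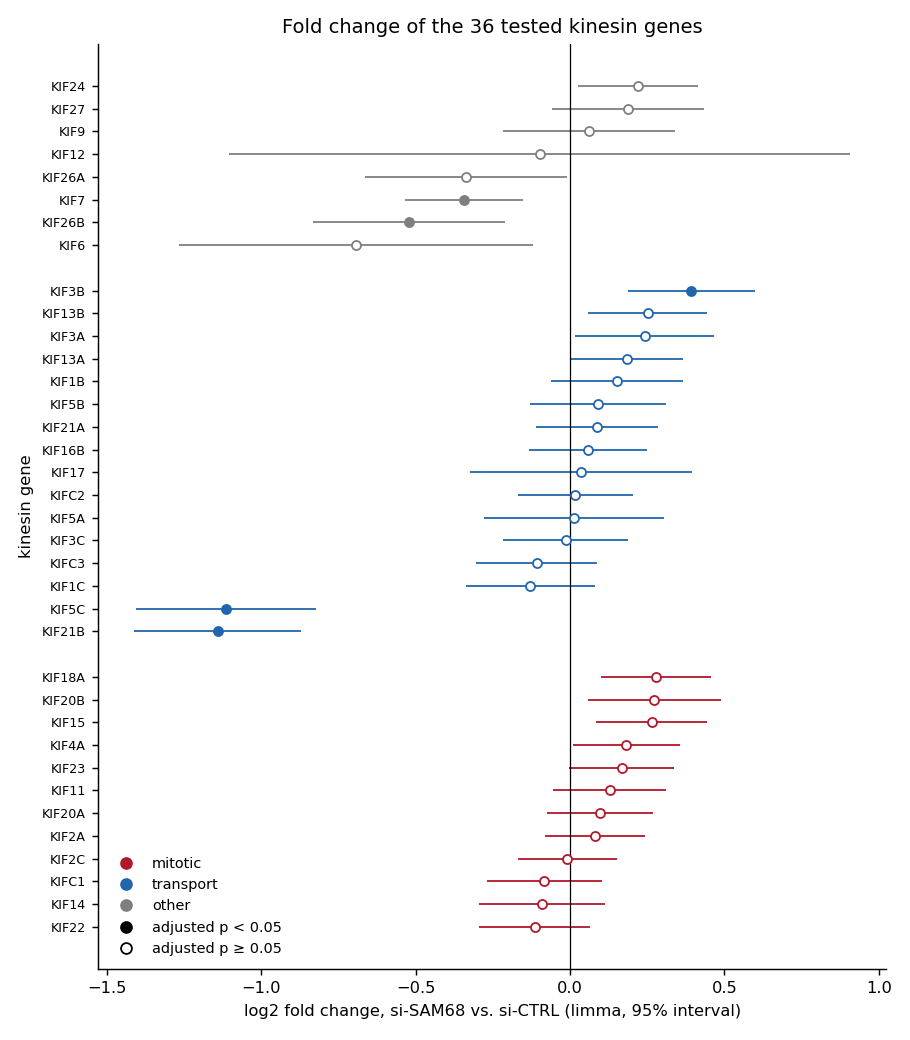
Log2 fold change of each of the 36 tested kinesins (si-SAM68 vs. si-CTRL, x axis, log2(normalized read count + 1) scale), with points for the estimates (filled at an adjusted p under 0.05), lines for the 95% confidence intervals and colours for the 3 classes. KIF21B and KIF5C lie beyond -1, whereas the 12 mitotic kinesins lie between -0.12 and 0.28.

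KIF21B, a kinesin-4 motor known from neurons and immune cells that carries cargo and restrains microtubule growth, had the largest fall. Its locus lies at chr1:200938514-200992828 (hg19), and its normalized read counts were 711, 665 and 568 in si-CTRL and 267, 302 and 308 in si-SAM68 libraries. Every silenced library lay far below every control library. The mean fell from 648 ± 73.4 to 292 ± 22.2 (SD, n = 3 each), 2.21-fold lower in si-SAM68 cells, with a log2 fold change of -1.14 (SE 0.12) and an adjusted p of 0.000802 by limma. Its close relative KIF21A averaged 880 ± 14.5 and 936 ± 52.0 in the same cells (SD, n = 3 each), a log2 fold change of 0.09 with an adjusted p of 0.569 by limma. Per kilobase of transcript, KIF21B made up 34.7, 33.9 and 30.0% of the KIF21 pair in the si-CTRL libraries and 16.9, 17.4 and 17.4% in the si-SAM68 libraries. This share is a ratio within a library and does not depend on how libraries were scaled. The groups did not overlap, and the exact two-sided permutation p was 0.1, the smallest that 3 against 3 libraries can give. The share uses the same read counts as the fold change, so it is not separate evidence of the fall.

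KIF5C is a heavy chain of kinesin-1, the motor of anterograde organelle and vesicle transport, and it is the form enriched in neurons, as is KIF5A, whereas KIF5B is made in most tissues. At its locus (chr2:149632792-149883273, hg19) the normalized read counts were 866, 837 and 647 in si-CTRL and 363, 383 and 332 in si-SAM68 libraries. All 3 silenced libraries lay below all 3 controls. The mean fell from 783 ± 119 to 359 ± 25.6 (SD, n = 3 each), 2.16-fold lower, with a log2 fold change of -1.11 (SE 0.13) and an adjusted p of 0.00112 by limma. KIF5B, at 5253 ± 479 and 5599 ± 575 (SD, n = 3 each), and KIF5A, at 412 ± 55.6 and 415 ± 43.2, had log2 fold changes of 0.09 and 0.01, with adjusted p of 0.597 and 0.964 by limma. The 95% intervals of both paralogs (-0.13 to 0.31 for KIF5B, -0.28 to 0.31 for KIF5A) lay above that of KIF5C (-1.41 to -0.82). Kinesin-1 heavy chain mRNA in these cells was mostly KIF5B, with 82.9 ± 2.85% of the length-corrected total in si-CTRL and 88.5 ± 1.84% in si-SAM68 libraries (SD, n = 3 each). KIF5C took 12.3, 10.4 and 8.83% in the si-CTRL libraries and 5.28, 5.15 and 4.1% in the si-SAM68 libraries, again with the smallest exact permutation p of 0.1.

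KIF21B and KIF5C kept their calls and their direction under each of the 17 alternative settings, with adjusted p of at most 0.0141 by limma whichever library was left out. Without si-SAM68 replicate 2, the library rich in ribosomal RNA, their adjusted p by limma were 0.00381 and 0.00490.

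**Figure D2:**
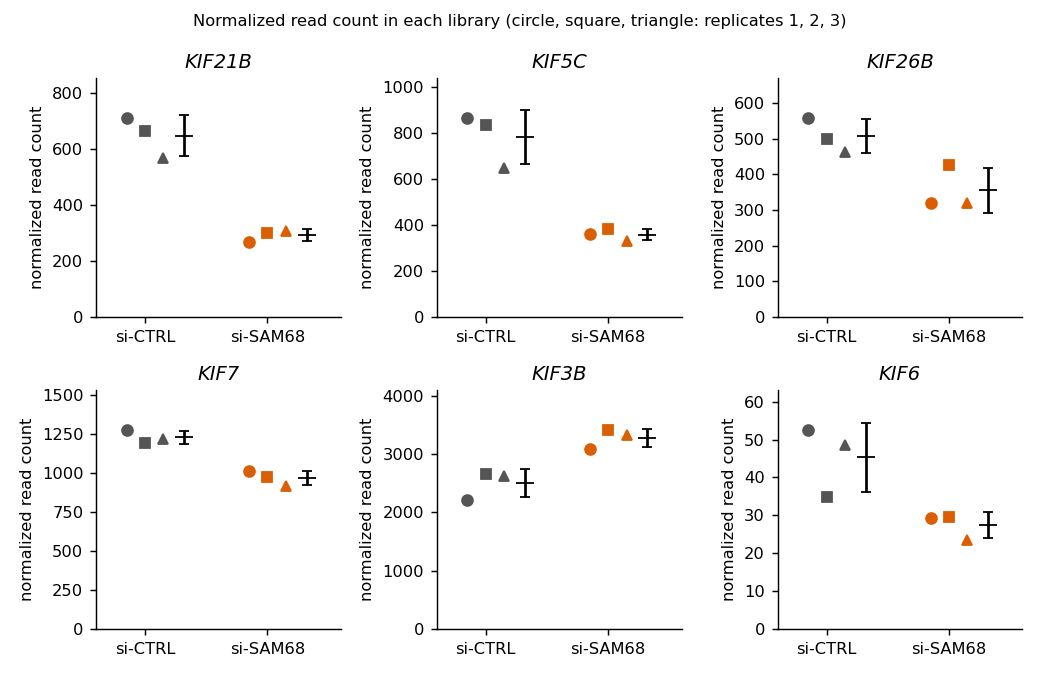
Normalized read count (y axis, from 0) in each of the 3 si-CTRL and 3 si-SAM68 libraries for the kinesins that passed a threshold, with circles, squares and triangles for replicates 1, 2 and 3 and a black line with bars for the mean ± SD. The silenced libraries lie at 267 to 308 for KIF21B and 332 to 383 for KIF5C, below all control libraries (568 to 711 and 647 to 866).

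**Figure D3:**
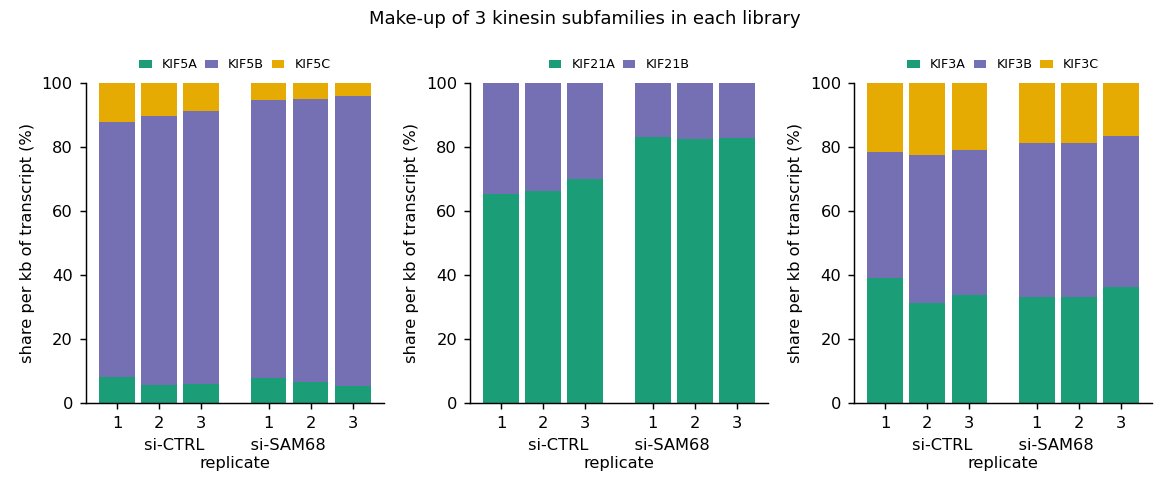
Make-up of the KIF5, KIF21 and KIF3 subfamilies as stacked bars, 1 bar for each si-CTRL and si-SAM68 library (x axis) and 1 colour for each paralog, in percent of the normalized read counts per kilobase of transcript (y axis). On average KIF21B made up 32.9% of the KIF21 pair in si-CTRL and 17.2% in si-SAM68, and KIF5C 10.5 and 4.85% of the KIF5 group.

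Matches of 7 bases to the siRNA seeds were searched in the longest annotated 3′UTR of each gene (GENCODE, GRCh38). They were present in 9 of the 36 tested kinesins (25.0%), beside 29.5% of 12545 tested genes with such a UTR. KIF21B had 1 match, KIF5C 2, KIF26B 3 and KIF6 2, and KIF7 and KIF3B had 0. Seed matches were also present in KIF3A, KIFC1, KIF16B, KIF20B and KIF21A, none of which was called. The sites in the 2 kinesins with the largest change are shown with capitals on the seed match, in GRCh38 coordinates with the strand.
KIF21B 3′UTR site of siRNA 1, chr1:200970179-200970197 (-): gtggctgcagtGACGTTAg
KIF5C 3′UTR site of siRNA 2, chr2:149025272-149025290 (+): attctgctagtTGCTGATc
KIF5C 3′UTR site of siRNA 4, chr2:149025954-149025972 (+): atttatagataTATTGGGa
The longest run that any siRNA of the pool shared with a transcript of KIF21B or KIF5C had 9 bases of 19. The part of these sites in the fall of either mRNA was not tested.

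Kinesin-2 carries cargo along cilia and through the cytoplasm as a heterotrimer, in which KIF3A pairs with KIF3B or KIF3C and the accessory subunit KIFAP3 binds the pair. KIF3B (chr20:30865454-30922809, hg19) was the only kinesin called higher, with normalized read counts of 2216, 2661 and 2619 in si-CTRL and 3092, 3406 and 3319 in si-SAM68 libraries. The groups did not overlap, and the mean rose 1.31-fold from 2499 ± 246 to 3272 ± 162 (SD, n = 3 each), a log2 fold change of 0.39 (SE 0.09) with an adjusted p of 0.0264 by limma. The call was lost without si-CTRL replicate 3 and without each of the si-SAM68 replicates in turn, with adjusted p of 0.0506 to 0.114 by limma. Its partners did not pass the test: KIF3A was at 2061 ± 207 and 2436 ± 213 (log2 fold change 0.24, adjusted p = 0.157 by limma), KIF3C at 1091 ± 40.5 and 1081 ± 80.4 (-0.01, 0.939) and KIFAP3 at 1441 and 1488 on average (0.06, 0.797). Among the 3 motor subunits, KIF3B made up 43.6 ± 3.76% in si-CTRL and 47.7 ± 0.488% in si-SAM68 libraries, and KIF3C 21.7 ± 0.788% and 18.03 ± 1.34% (SD, n = 3 each). Neither share overlapped between the groups, with the smallest exact permutation p of 0.1. KIF17, the homodimeric kinesin-2 of cilia and dendrites, averaged 191 and 195. The locus of KIF17 overlaps that of DDOST and PINK1-AS, whose mean normalized read count was 27558. That of KIF3A overlaps the locus of IL5 and SHROOM1 (1411), so that some reads of KIF17 and KIF3A may be shared.

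Among the other kinesins, KIF7 is a kinesin-4 that works at the tip of the primary cilium in Hedgehog signalling. Its normalized read counts (locus at chr15:90171201-90198682, hg19) were 1274, 1194 and 1214 in si-CTRL and 1012, 970 and 918 in si-SAM68 libraries. The groups were apart in all libraries, and the mean fell from 1227 ± 41.3 to 967 ± 47.2 (SD, n = 3 each), with a log2 fold change of -0.34 (SE 0.09) and an adjusted p of 0.0331 by limma. With the replicate number as a block the adjusted p was 0.0503 by limma, and the call was also lost without any library other than si-CTRL replicate 1 (0.0625 to 0.131). The locus overlaps that of TICRR, so that reads at the shared end cannot be told apart if strand was not used. KIF27, the nearest relative of KIF7, averaged 603 and 690 (log2 fold change 0.19, adjusted p = 0.305 by limma), and KIF7 made up 67.5 ± 0.356% and 59.0 ± 4.12% of the pair per kilobase (SD, n = 3 each; exact permutation p of 0.1).

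KIF26B belongs to the kinesin-11 family, whose members lack the usual ATPase activity and act in signalling and cell adhesion. At chr1:245318285-245866556 (hg19) it had normalized read counts of 557, 498 and 464 in si-CTRL and 318, 426 and 319 in si-SAM68 libraries. The groups did not overlap, but replicate 2 of si-SAM68 came close to the lowest control library. The mean fell from 506 ± 47.3 to 355 ± 61.8 (SD, n = 3 each), with a log2 fold change of -0.52 (SE 0.14) and an adjusted p of 0.0421 by limma. The adjusted p was 0.0555 with the replicate block, and 0.0525 to 0.169 without any library other than si-SAM68 replicate 2, whose removal gave 0.0291. KIF26A, its paralog, averaged 721 ± 137 and 564 ± 51.1 (SD, n = 3 each; log2 fold change -0.34, adjusted p = 0.172 by limma), and the shares of the 2 paralogs overlapped between the groups (exact permutation p of 0.5).

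KIF6, a kinesin-9 of motile cilia, passed the thresholds of the study only. Its normalized read counts of 52.5, 34.9 and 48.5 in si-CTRL and 29.2, 29.4 and 23.5 in si-SAM68 libraries gave a log2 fold change of -0.69 (SE 0.26), with an unadjusted p of 0.0227 and an adjusted p of 0.117 by limma (chr6:39297766-39693181, hg19). It was the lowest of the 36 kinesins per kilobase of transcript. The remaining members of this class were KIF24, a regulator of centrioles and cilia (log2 fold change 0.22, adjusted p = 0.140 by limma), and KIF9 and KIF12, which had -0.10 to 0.06. The locus of KIF24 overlaps that of UBAP1 (mean normalized read count of 4528) and KIF9 overlaps KLHL18 and KIF9-AS1, so that some reads may be shared.

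None of the mitotic kinesins passed the test by limma (DESeq2 called KIF18A and KIF15), and most of their estimates lay slightly above 0. The median log2 fold change of the 12 tested members was 0.11, beside 0.005 over all loci tested. It was 0.05 in the 16 transport kinesins and -0.22 in the 8 other kinesins. Above 0 lay 8 of the 12, beside 11 of the 16 transport kinesins, 3 of the 8 other kinesins and 50.9% of all loci. Their 95% intervals all lay between -0.30 and 0.49, so that no interval reached a change of 1.5-fold. Groups that did not overlap were seen in 5 of the 12 and in 14 of the 36 kinesins, beside 33.9% of all loci in either direction. The 5 were KIF18A, KIF15, KIF20B, KIF4A and KIF23, all higher in si-SAM68 cells, and they are named here after their values were seen. The share of all loci without overlap in the upward direction alone was not counted. As the median deviation of the class from each member's own mean, the si-CTRL libraries stood at -0.0067, -0.048 and -0.082 and the si-SAM68 libraries at 0.031, 0.028 and 0.137 on the log2 scale. The mitotic kinesins took 63.0, 62.7 and 63.0% of the normalized reads of all tested kinesins in si-CTRL and 64.2, 63.2 and 65.3% in si-SAM68 libraries, while the transport kinesins took 33.9 ± 0.145% and 32.9 ± 1.09% (SD, n = 3 each).

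The most abundant mitotic kinesins were KIF23, KIFC1 and KIF22. KIF23, the motor of the centralspindlin complex that builds the midzone for cytokinesis, had normalized read counts of 17301, 18711 and 18035 in si-CTRL and 19430, 19561 and 21766 in si-SAM68 libraries. Every silenced library was above every control, and the log2 fold change was 0.17 (SE 0.08) with an adjusted p of 0.191 by limma. KIFC1, a minus-end motor that clusters extra centrosomes in cancer cells, had 13008, 11597 and 11191 in si-CTRL and 12040, 10900 and 10817 in si-SAM68 libraries, and the groups overlapped (log2 fold change -0.08, adjusted p = 0.562 by limma). KIF22, the chromokinesin that pushes chromosome arms away from the poles, had 9769, 9215 and 8646 in si-CTRL and 9148, 8080 and 8284 in si-SAM68 libraries, also with overlap (-0.12, 0.395).

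By limma the nearest to a call among the mitotic kinesins was KIF18A, a kinesin-8 that damps chromosome movements at the metaphase plate. It had normalized read counts of 3693, 3395 and 3537 in si-CTRL and 4124, 4136 and 4640 in si-SAM68 libraries, a log2 fold change of 0.28 (SE 0.08) with an adjusted p of 0.0547 by limma. It passed the threshold, still by limma, with a minimum mean of 50 (0.0467) and with quantile scaling (0.0498), and its adjusted p was 0.0557 by edgeR and 0.0200 by DESeq2. KIF15, which works beside KIF11 in holding the spindle poles apart, had a log2 fold change of 0.26 with an adjusted p of 0.0651 by limma, 0.0660 by edgeR and 0.0319 by DESeq2. KIF20B, a kinesin-6 of late cytokinesis, had 0.27 (0.103), and the chromokinesin KIF4A had 0.18 (0.166). KIF11 itself, the kinesin-5 target of antimitotic drugs, had 0.13 (0.346), and KIF20A and KIF2A had 0.10 and 0.08. KIF2C, the kinesin-13 that removes tubulin from microtubule ends at the centromere, was at 8132 ± 351 and 8081 ± 268 (SD, n = 3 each; -0.01, 0.955), and KIF14, a motor of the midbody, had -0.09 (0.566). The loci of KIF20A and KIF4A overlap those of CDC23 and DLG3, and KIF23, KIF22 and KIFC1 overlap loci without a symbol, so that some of their reads may be shared.

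The count of calls depended on single libraries. Without si-CTRL replicate 1, the adjusted p of KIF18A, KIF15, KIF20B and KIF4A fell under 0.05, and 11 of the 36 kinesins were called in place of 5. The adjusted p of KIF13A, KIF3A and KIF26A, which are not mitotic, fell under 0.05 as well. Over all 18849 loci, 2839 were called in place of 2017. Leaving out any other library, 2 or 3 kinesins and 625 to 1592 of all loci were called.

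Proliferation markers outside the family were read beside these values, since mitotic kinesins follow the cell cycle. Of 18 such markers 1 was called higher and 3 lower, beside 4.47% and 6.23% of all loci. The median log2 fold change was -0.15, with 5 of the 18 above 0 and 13 below. Above 0 were cyclin E2, TOP2A (0.36, adjusted p = 0.105 by limma), CDK1 (0.28, 0.0945), CCNA2 (0.10, 0.415) and MKI67. Below 0 but not called were MCM2, MCM3, MCM4, MCM6, MCM7, E2F1, MYBL2, FOXM1, PCNA and RRM2. Their log2 fold changes were -0.24 to -0.01, with adjusted p of 0.0690 (MCM7, -0.23) or more by limma. The summed level of the 18 was 266965 to 288151 in si-CTRL and 263108 to 266788 in si-SAM68 libraries. Cyclin E2 (CCNE2) rose from 1435 to 2470 on average (log2 fold change 0.78, adjusted p = 0.000778 by limma), whereas cyclin E1 (CCNE1) fell from 406 to 216 (-0.91, 0.00419). MCM5, a subunit of the replicative helicase, and TYMS, which makes thymidylate, had log2 fold changes of -0.37 and -0.33 (adjusted p of 0.0242 and 0.0247 by limma). TYMS lost its call without any library other than si-CTRL replicate 1 (0.0506 to 0.116), and MCM5 without si-CTRL replicate 3 or si-SAM68 replicate 2 or 3 (0.0516 to 0.112). MKI67, the classic mark of cycling cells, averaged 49249 and 49193 (log2 fold change 0.01, adjusted p = 0.972 by limma), and its sign turned with the setting. Their part in the values of the mitotic kinesins was not tested.

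Promoter motifs, which the choice of the members did not use, were counted in each class, with no test of the difference. Promoters of genes that peak in G2 and mitosis often hold a CHR (cell cycle genes homology region), searched as TTTGAA, and CCAAT boxes, which bind NF-Y. In windows of 300 bases around the start site (RefSeq, GRCh38.p14, both strands, a gene counted once if any of its windows held the motif), TTTGAA was found in 9 of 14 mitotic kinesins (64.3%), 1 of 12 transport kinesins (8.33%), 0 of 7 other kinesins and 18.2% of 27305 genes. CCAAT was found in 10 of 14 (71.4%), 4 of 12 (33.3%), 3 of 7 (42.9%) and 39.7%, and both together in 8 of 14 (57.1%), 1 of 12, 0 of 7 and 8.37%. The mitotic members without TTTGAA were KIF20A, KIF22, KIF2A, KIF2B and KIF2C, and the near-identical copies KIF4A and KIF4B count as 2 of those with it. The only transport kinesin with both was KIF5B. A match of letters is not a bound site. Promoters are shown for KIF18A, KIF23 and KIF11 as mitotic members, for KIF5B, and for KIF5C as a regulated member with no TTTGAA, with the motifs in capitals.
KIF18A promoter, chr11:28108107-28108406 (-): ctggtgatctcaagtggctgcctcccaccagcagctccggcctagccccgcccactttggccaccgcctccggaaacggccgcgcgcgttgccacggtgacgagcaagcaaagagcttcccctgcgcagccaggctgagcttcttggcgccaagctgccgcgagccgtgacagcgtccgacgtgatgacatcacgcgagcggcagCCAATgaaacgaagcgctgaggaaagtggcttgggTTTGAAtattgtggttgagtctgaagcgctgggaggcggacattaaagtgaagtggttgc
KIF23 promoter, chr15:69414099-69414398 (+): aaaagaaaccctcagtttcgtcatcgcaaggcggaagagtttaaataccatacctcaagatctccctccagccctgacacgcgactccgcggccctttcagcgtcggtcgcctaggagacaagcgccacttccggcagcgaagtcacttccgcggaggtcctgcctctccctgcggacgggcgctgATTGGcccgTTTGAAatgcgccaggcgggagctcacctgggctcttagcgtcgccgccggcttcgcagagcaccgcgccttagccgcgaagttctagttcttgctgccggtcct
KIF11 promoter, chr10:92592880-92593179 (+): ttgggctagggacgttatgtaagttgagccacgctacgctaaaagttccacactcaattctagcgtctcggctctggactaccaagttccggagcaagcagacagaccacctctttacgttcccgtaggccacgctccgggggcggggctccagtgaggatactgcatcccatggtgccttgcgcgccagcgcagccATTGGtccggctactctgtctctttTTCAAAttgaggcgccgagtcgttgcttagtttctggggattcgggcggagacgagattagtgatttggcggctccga
KIF5B promoter, chr10:32056376-32056675 (-): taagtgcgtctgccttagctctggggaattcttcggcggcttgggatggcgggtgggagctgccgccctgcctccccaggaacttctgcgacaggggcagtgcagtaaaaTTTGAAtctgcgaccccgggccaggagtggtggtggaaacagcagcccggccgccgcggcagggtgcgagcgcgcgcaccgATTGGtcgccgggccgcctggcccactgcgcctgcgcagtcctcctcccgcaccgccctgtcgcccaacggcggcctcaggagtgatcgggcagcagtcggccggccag
KIF5C promoter, chr2:148874977-148875276 (+): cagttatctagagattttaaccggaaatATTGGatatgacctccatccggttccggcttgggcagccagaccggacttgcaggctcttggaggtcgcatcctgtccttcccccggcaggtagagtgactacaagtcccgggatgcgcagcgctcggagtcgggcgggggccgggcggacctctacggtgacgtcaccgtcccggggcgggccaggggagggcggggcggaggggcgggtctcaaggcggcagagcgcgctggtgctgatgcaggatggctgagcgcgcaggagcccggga

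In the 3 mitotic windows the CCAAT box (ATTGG when read on the other strand) stands 5′ of the TTTGAA element (TTCAAA on the other strand). In KIF5B the order is reversed and the motifs are further apart.

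**Figure D4:**
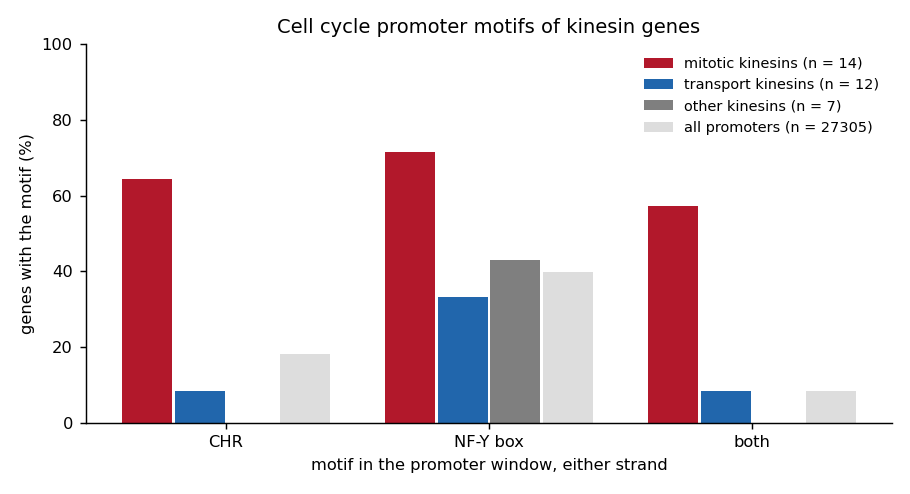
Percent of genes (y axis) whose promoter window of 300 bases held the CHR motif, the NF-Y box or both, for mitotic, transport and other kinesins and for all RefSeq promoters. The CHR motif was present in 64.3% of the mitotic kinesins and in 18.2% of all genes.

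Levels between genes were compared as normalized read counts per kilobase of the longest coding transcript, as means over all 6 libraries. The 6 highest kinesins on this scale were mitotic, led by KIF23 at 5139 and KIFC1 at 4284, and the lowest of the 12 mitotic members was KIF15 at 680.2. The most abundant transport kinesins by read count were KIF1C, KIFC3 and KIF13A. KIF1C, which carries vesicles and integrins, had normalized read counts of 16669, 13626 and 13386 in si-CTRL and 13728, 13313 and 12733 in si-SAM68 libraries (log2 fold change -0.13, adjusted p = 0.413 by limma). KIFC3, a minus-end motor of epithelial junctions and the Golgi whose locus is joined with a microRNA gene in the table, had 7761, 8785 and 9404 in si-CTRL and 8298, 8133 and 7580 in si-SAM68 libraries (-0.11, 0.460). KIF13A, a motor of endosomes, had 6280, 6001 and 5468 in si-CTRL and 6403, 7102 and 6660 in si-SAM68 libraries. Its groups did not overlap, but the log2 fold change of 0.19 had an adjusted p of 0.178 by limma, and its paralog KIF13B had 0.25 with 0.0942.

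KIF21B and KIF5C were among the scarce members, at 47.5 and 82.4 per kilobase, beside 138 for KIF21A, 923 for KIF5B and 71.0 for KIF5A. The remaining transport kinesins KIF1B, KIF16B and KIFC2 had log2 fold changes of 0.02 to 0.15, with adjusted p of 0.340 or more by limma.

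**Figure D5:**
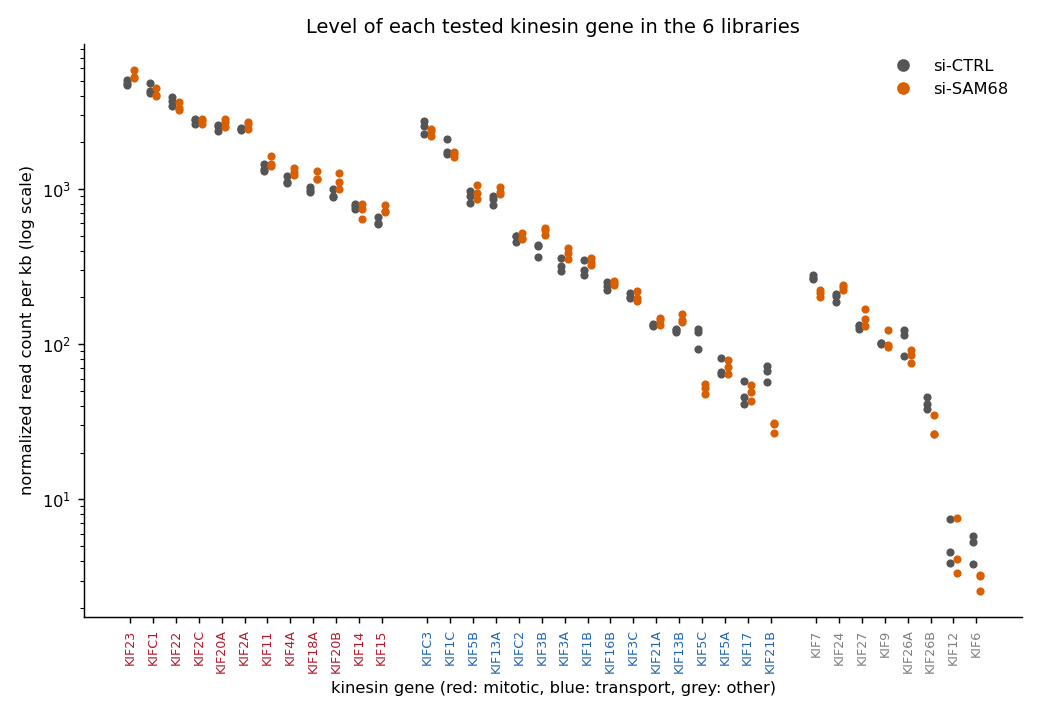
Normalized read count per kilobase of transcript (y axis, log scale) of the 36 tested kinesins (x axis, names coloured by class), with grey points for the 3 si-CTRL and orange points for the 3 si-SAM68 libraries. The means of the mitotic kinesins lie between 680.2 and 5139, and KIF12 at 5.18 and KIF6 below it lie at the lower end.

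Light chains and adaptors connect transport kinesins to their cargo, and 4 of 18 tested were called (22.2%), beside 10.7% of all loci. Of these 4, 2 were higher and 2 lower, and the median log2 fold change of the 18 was -0.07. KTN1 (kinectin), a membrane anchor for kinesin-1 on the endoplasmic reticulum, rose from 22275 to 29627 on average (log2 fold change 0.41, adjusted p = 0.0119 by limma). KLC3, a scarce light chain, had 22.5, 17.4 and 21.9 normalized read counts in si-CTRL and 59.4, 42.3 and 50.3 in si-SAM68 libraries (1.25, 0.0151). FEZ1, an adaptor of kinesin-1 in axons, had 251, 211 and 240 in si-CTRL and 159, 109 and 109 in si-SAM68 libraries, and fell by 0.91 on the log2 scale (adjusted p = 0.0121 by limma). Its paralog FEZ2 fell by 0.44 (0.0165). These calls depended on single libraries: FEZ1 lost its call without si-SAM68 replicate 3 (adjusted p = 0.0700 by limma), KTN1 without si-SAM68 replicate 2 or 3 (0.0530 and 0.0693), KLC3 without si-SAM68 replicate 1 or 3 (0.0671 and 0.0731), and FEZ2 without si-CTRL replicate 3 or any si-SAM68 replicate (0.0541 to 0.0664).

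Among 25 mitotic partners of kinesins, such as kinetochore and chromosomal passenger proteins, 1 was called (4%), beside 10.7% of all loci. The median log2 fold change was 0.04. INCENP, the scaffold of the chromosomal passenger complex, had 3563, 2781 and 2856 in si-CTRL and 2365, 2297 and 2319 in si-SAM68 libraries (log2 fold change -0.39, adjusted p = 0.0384 by limma). Its call was lost without si-CTRL replicate 3 or any si-SAM68 replicate (0.0589 to 0.135). PLK1, a kinase of mitotic entry, had -0.26 (0.0771), the microtubule polymerase CKAP5 0.20 (0.123) and the checkpoint protein MAD2L1 0.38 (0.137). CENPE, the kinesin-7 of kinetochores, whose symbol lies outside the KIF names, averaged 12820 and 11625 (-0.15, 0.399), so that it too did not pass the test.

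The 5 kinesins that were not tested had means under 10. KIF2B and KIF19 had 0 reads in all 6 libraries, which allows up to 3 reads in each, or 2.76 to 3.75 on the normalized scale, for counting error only. KIF1A, a neuronal motor of synaptic vesicle precursors, was at 0 to 4.999, and KIF25 at 3.68 to 16.2. KIF4B was at 0 to 14.7, and since it is a near-identical copy of KIF4A it can share reads with it.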

How the data were processed

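RNA was sequenced with a stranded mRNA kit, per the labels. In the deposited table each value is a signal made by the authors, namely the reads counted on each FAST DB locus (hg19) divided by the size factor of each library (DESeq2). The processing notes of the submitters name STAR 2.4.0 as aligner. The counting program and the use of strand in counting are not given in the sources used here. No label says that replicates were separate cultures, so the p-values measure the spread between these libraries, which may be technical.

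Dividing each library by its smallest step gave whole reads for 100% of the values (within 0.01). In si-SAM68 replicate 1 the step of 1.007 lay too near to 1 to be told apart from it by an automatic test. At 41493 loci all libraries were at 0. The 18849 loci whose mean over the 6 libraries reached 10 held 99.96% of the reads. They were tested with limma 3.58.1 (R 4.3.3, moderated with a mean-variance trend) after log2(normalized read count + 1), with Benjamini-Hochberg adjustment over all of them, and fold changes are on this scale. The model was tested on simulated data. Intervals and limits of zero counts cover counting error only where they come from reads.

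Libraries of the same replicate number deviated together (correlations of 0.105, 0.231 and 0.125, beside -0.125 to 0.00687 for other pairs), so a fit blocked on that number is given where it changes a call.

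Tried besides were pseudocounts of 0.1 and 5, a minimum mean of 50 or none, TMM (edgeR 4.0.16) and quantile scaling, eBayes without a trend or with a robust one, the block, each library left out, and edgeR and DESeq2 1.42.0 on the recovered reads. Named are every kinesin past a threshold, the 3 most abundant mitotic and transport kinesins, CENPE, KIFAP3, MKI67 and KHDRBS1. From each list of partners at most 4 genes of smallest adjusted p are named, plus the other proliferation markers. Other kinesins are named to account for all members. The members and lists were chosen with earlier results of these data known. Transcript lengths, 3′UTRs and siRNA sites came from GENCODE (GRCh38) and promoters from RefSeq (GRCh38.p14), with 33 of the 41 kinesins matched. The siRNA sequences are those listed by the study. Exact permutation tests on paralog shares were two-sided. They used the same read counts as the fold changes and are not separate evidence.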

Additional observations from a re-analysis of the deposited data

How the results depend on the processing

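The medians of the mitotic, the transport and all kinesins stayed within the spread between replicates, and the count past the thresholds of the study within 1.5 times its value, under every alternative run. The count of kinesins at an adjusted p under 0.05, 5 in the reported fit, was 2 by eBayes without a trend and 3 with the replicate block, 6 with a minimum mean of 50 and 7 by DESeq2 (adding KIF18A and KIF15), and leaving out a library each in turn gave 2 to 11. KIF21B and KIF5C were called in every setting. On the partner lists 15 genes were called, against 6 by eBayes without a trend, 20 by DESeq2 and 3 to 20 with a library left out. Over all loci, 2017 were called in the reported fit, 899 without a trend, 2789 by DESeq2, 1697 with the block and 625 to 2839 with a library left out. The lowest of these counts came without si-SAM68 replicate 3 and the highest without si-CTRL replicate 1.

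The block of the replicate number took the calls of KIF26B and KIF7 (adjusted p of 0.0555 and 0.0503 by limma), DYNC1LI2 and DCTN5 among the kinesins and genes named, and changed no direction.

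Among the 59 genes followed through the settings, directions turned only for genes near 0, as log2 fold changes. With a library left out the ranges were -0.417 to 0.157 (KIF12), -0.0670 to 0.169 (KIF17), -0.0448 to 0.0180 (KIF2C), -0.0733 to 0.0294 (KIF3C), -0.0626 to 0.120 (KIF5A), -0.0541 to 0.127 (KIF9), -0.0243 to 0.0432 (KIFC2), -0.0729 to 0.146 (KIFAP3) and -0.128 to 0.136 (MKI67). MKI67 also turned with quantile scaling (-0.0262) and with DESeq2 (-0.000614). For the 59 genes, 882 of the values kept direction and side of the threshold, 80 lost the threshold, 16 gained it and 20 turned. The cause was not tested. With 3 libraries a group, exact permutation tests cannot go below 0.1, and depth limits KIF6, KIF12 and the 5 untested kinesins most.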

Other observations

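Dynein, the motor that moves toward the minus ends of microtubules, and its activator dynactin were read beside the kinesins. Of 24 tested subunits and adaptors, 1 was called higher and 2 lower (12.5% in all), beside 10.7% of all loci. The median log2 fold change was 0.03. BICD1, an adaptor of dynein on Golgi vesicles, had normalized read counts of 1580, 1309 and 1249 in si-CTRL and 914, 1074 and 941 in si-SAM68 libraries, and fell by 0.49 on the log2 scale (adjusted p = 0.0232 by limma). Its call was lost without si-SAM68 replicate 1 or 3 (0.0884 and 0.106). The light intermediate chain DYNC1LI2 had a log2 fold change of 0.26 (0.0397) and the dynactin subunit DCTN5 of -0.35 (0.0429), and both lost their call with the replicate block (0.0655 and 0.0557) and without any library other than si-CTRL replicate 1. ACTR10, a subunit at the pointed end of dynactin, had 0.33 (0.0589).

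Of 15 tubulins, from which the tracks are built, 1 was called higher and 2 lower (20% in all), beside 10.7% of all loci. The median log2 fold change was -0.12. TUBB6 had normalized read counts of 23372, 22038 and 22874 in si-CTRL and 16121, 14739 and 14972 in si-SAM68 libraries, a log2 fold change of -0.58 with an adjusted p of 0.00152 by limma that held with each library left out (at most 0.0163). TUBA1A had 0.39 (0.0414) and TUBA1B -0.46 (0.0456), and both lost the call without si-CTRL replicate 2 or any si-SAM68 replicate, TUBA1A also without si-CTRL replicate 3. TUBB4A had -0.73 (0.0573). Tubulin paralogs can share reads.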
